A study of Mus musculus with 24 samples.

Results

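Drd1 striatal projection neurons, here called Drd1 SPN, were taken from the deep brain libraries and selected on the UMI counts of marker genes in each nucleus. A nucleus had to hold more than 500 and fewer than 7000 genes, less than 20% mitochondrial UMIs (unique molecular identifiers, each standing for a captured RNA molecule) and at least 3000 UMIs in all. It also had to hold at least 3 UMIs of Rgs9 and at least 2 of Drd1, no UMI of Drd2, Adora2a, Gpr6 or Csf1r, at most 1 UMI of Slc17a6 and Slc17a7 together and at most 2 of Mog, Mag and Mobp together. These limits were met by 2533 of the 124958 deep brain nuclei that passed the limits on genes and mitochondrial share (2.03%); the whole series held 237224 barcodes, of which 204925 passed. The measurement was single-nucleus RNA sequencing of the 5′ ends of nuclear transcripts. The mutants were 6 Pdgfb ret/ret mice, all female, and the controls were 6 Pdgfb ret/wt mice (5 female and 1 male, control replicate 6), all 4 to 5 months old and of the strain B6.Pdgfbtm3Cbet. The controls thus carried a ret allele as well, and no Pdgfb wt/wt mouse was compared. Each mouse gave a deep brain and a cortical library, so a library stands for a mouse. The study names pallidum, thalamus and hypothalamus, midbrain and pons as deep brain, and cerebral cortex and hippocampus as cortical; the striatum is named in neither.

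SPN are the GABAergic output cells of the striatum. Those with the D1 dopamine receptor send their axons directly to the output nuclei of the basal ganglia, release substance P and dynorphin (from Tac1 and Pdyn) and raise cAMP through the G protein Gnal and the adenylyl cyclase Adcy5 when dopamine binds. Those with the D2 receptor project through the globus pallidus, release enkephalin (from Penk) and lower cAMP on dopamine binding. SPN further differ by compartment (striosome and matrix) and by position (dorsolateral against ventral and medial striatum), and eccentric SPN are a group with a transcriptome of their own. The ret allele lacks the retention motif of PDGF-B, the endothelial growth factor that recruits pericytes, and ret/ret mice are known for pericyte loss and for calcified vessels in the deep brain; the allele is present in every cell, so that an effect in a neuron cannot be assigned to a cell of origin.

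The sequence upstream of 2 neuropeptide genes that the results return to is shown with the core of the cAMP response element in capitals. Tac1 marks Drd1 SPN, and Nts had the highest genotype fold change among the genes of all lists. The stretches are RefSeq sequence of the build GRCm38.p6, cut to the bases upstream of the GENCODE gene: Tac1 at chr6:7554811-7554878 on the plus strand and Nts at chr10:102490487-102490668 on the minus strand, both printed 5′ to 3′.
Tac1: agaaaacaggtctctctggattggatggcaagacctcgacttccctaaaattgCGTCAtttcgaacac
Nts: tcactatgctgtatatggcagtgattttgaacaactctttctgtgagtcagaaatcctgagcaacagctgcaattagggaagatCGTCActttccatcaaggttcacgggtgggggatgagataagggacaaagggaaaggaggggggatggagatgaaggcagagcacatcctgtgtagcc
The motif searched was CGTCA or its reverse complement TGACG, on both strands of the 250 bases before each RefSeq gene start. It occurred 2 times in the Tac1 window, 197 and 43 bases before the start (the nearer match lies in the part not printed), and 1 time in the Nts window, 166 bases before the start. Of 32851 such windows of the same length, 5836 (17.8%) held the motif, so that a match is common and does not show a bound site.

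The values that chose the nuclei are given as a description. Rgs9 ran from 3 to 52 UMIs per nucleus with a median of 13, and Drd1 from 2 to 14 with a median of 3. Total UMIs ran from 3012 to 42960 (median 12516), the median number of genes was 4150, and the highest mitochondrial share was 5.14%. The Drd1 limit cut through a populated range. It left out 700 nuclei with 1 Drd1 UMI that met all other limits (median 10218 UMIs), beside 724 members with 2 Drd1 UMIs (median 11772 UMIs). The Rgs9 limit left out 125 nuclei with 2 UMIs beside 93 members with 3. A further 199 nuclei were left out for 1 UMI of Drd2, Adora2a and Gpr6 together, and 88 held at least 2 UMIs of Drd1 and at least 2 of those 3 genes, at a median of 17248 UMIs. Scrublet called 150 members doublets (5.92%), beside 5.91% of all kept deep brain nuclei, and these members were kept. The tests of shares, of genotype and of Drd1 against Drd2 SPN were recomputed without them. So was the difference of genotype change between the SPN types. Cortical nuclei had no doublet calls, and comparisons with them were not recomputed. Among the members, 1 barcode occurred in more than 1 deep brain library, and 347 had a barcode that was also kept in another deep brain library, beside 18038 of the 124958 kept barcodes in all.

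The deep brain libraries held 64736053 to 96459036 UMIs each, and the median member held 10886 to 15660 UMIs, depending on the library. Control replicate 2 held 6 Drd1 SPN nuclei among 10908 kept nuclei and stood apart. Sums over nuclei were used only from libraries with at least 10 nuclei, so that gene comparisons rest on 6 mutants and 5 controls without control replicate 2. The 12 cortical libraries held another 1131 nuclei that met the same limits, used here only beside the deep brain values.

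The number of Drd1 SPN nuclei varied more between mice of a genotype than between genotypes. The 6 controls gave 295, 6, 72, 216, 76 and 393 nuclei and the 6 mutants 114, 315, 247, 447, 197 and 155. As a share of the kept nuclei of a library this came to a median of 1.77% in controls (0.0550% to 3.46%) and 2.13% in mutants (1.10% to 3.74%), so that the groups overlapped over the whole mutant range up to the highest control. The means were 2.27% ± 1.03 (SD, n = 6) in mutants and 1.81% ± 1.48 (SD, n = 6) in controls (two-sided exact permutation test over all splits of the 12 mice, p = 0.537; the smallest p this design allows is 0.00216). Summed over both libraries of a mouse, the mutant mean was 1.81% ± 0.472 and the control mean 1.81% ± 1.03 (p = 0.998, exact permutation test). In the cortical libraries, 0.351% to 3.01% of kept control nuclei and 0.209% to 2.83% of kept mutant nuclei met the limits; how much striatal tissue each dissection took was not measured.

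The ratio of the SPN types does not need the other cells of a library. For this ratio, Drd2 SPN were taken with the same limits but at least 2 UMIs of Drd2, Adora2a and Gpr6 together and no Drd1 UMI, which gave 2325 deep brain nuclei. Drd1 SPN were 54.8% ± 2.85 (SD, n = 6) of both SPN types in mutants (50.9% to 58.9%) and 51.0% ± 3.28 (SD, n = 5) in controls (45.7% to 53.9%). The difference of 3.78 percentage points did not pass the test (two-sided exact permutation test over 462 splits, p = 0.0823), although it did with Drd1 or Drd2 genes at 1 UMI and Rgs9 at 2 (5.67 points in the same 11 libraries, exact permutation test, p = 0.0260, and 7.61 points with control replicate 2, which then held enough nuclei, exact permutation test, p = 0.0130), without Scrublet doublets (4.38 points, exact permutation test, p = 0.0216) and without mutant replicate 4 (4.56 points, exact permutation test, p = 0.0397). It was 2.17 points with limits raised to 5 UMIs of Rgs9 and 3 of the receptor genes (exact permutation test, p = 0.476) and 1.66 points with the limits set on nuclei thinned to 3000 UMIs (exact permutation test, p = 0.359). The level of the share moved as well. It was 47.0% in mutants and 44.9% in controls under the raised limits, and 23.6% and 21.9% on thinned nuclei. In the cortical libraries the mutant share lay lower, at 50.3% ± 3.34 (SD, n = 6), than the control share of 60.9% ± 6.06 (SD, n = 6); this was not tested.

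**Figure D1:**
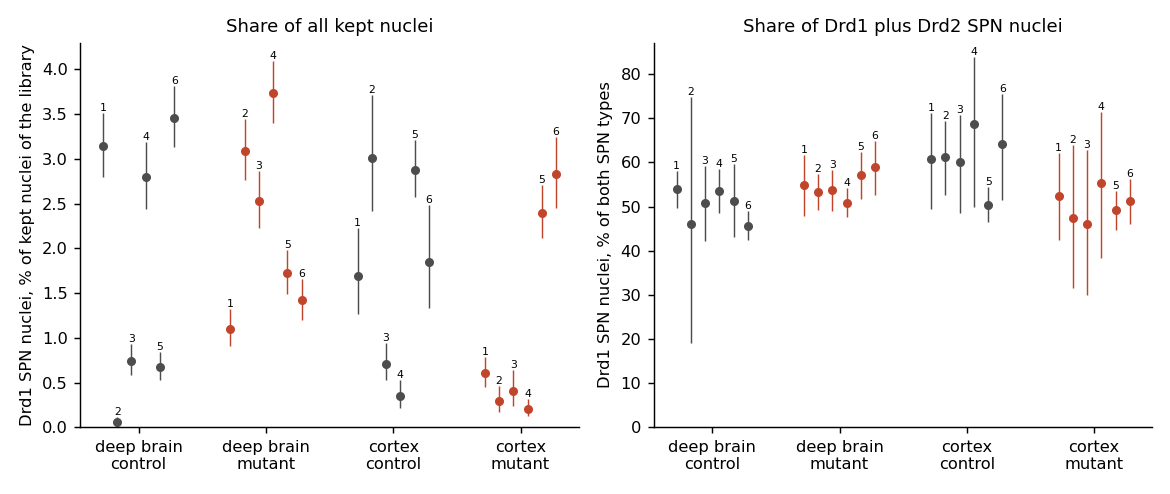
Drd1 SPN nuclei as percent of all kept nuclei of a library (left) and as percent of Drd1 plus Drd2 SPN nuclei (right), for each mouse by region and genotype, with the replicate number above each point and bars for the exact 95% binomial interval, which covers counting error only. The deep brain shares on the left run from 0.0550% to 3.46% in controls and from 1.10% to 3.74% in mutants.

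Genes that played no part in the choice of nuclei marked them as SPN. The striatal phosphodiesterase Pde10a, which degrades cyclic nucleotides, stood at 3524 ± 445 CPM (UMIs of the gene per 1000000 UMIs of the nuclei; SD, n = 11 libraries) in Drd1 SPN, at 3848 in Drd2 SPN, at 709 in GABAergic nuclei without Rgs9 (8466 nuclei) and at 286 in oligodendrocyte-like nuclei (13219 nuclei). DARPP-32 (Ppp1r1b), the phosphatase inhibitor that relays dopamine signals, stood at 243 ± 49.1 CPM in Drd1 SPN, beside 228 in Drd2 SPN and 7.14 in other GABAergic nuclei. The transcription factor Foxp1 stood at 1750 ± 263 CPM against 210 in other GABAergic nuclei, Adcy5 at 849 ± 111 against 70.2, and Gnal at 661 ± 34.6 against 138. Tac1 stood at 314 ± 79.0 CPM in Drd1 SPN and at 21.6 in Drd2 SPN, 27.3 in other GABAergic nuclei and 23.4 in oligodendrocyte-like nuclei. All 4 given marker genes, Drd1, Rgs9, Tac1 and Pde10a, were thus in place, of which Drd1 and Rgs9 by the rule itself.

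Markers of other cells were low but not at 0. Mbp, the myelin basic protein gene, stood at 74.1 ± 15.7 CPM in Drd1 SPN and at 67.7 in Drd2 SPN, beside 3713 in oligodendrocyte-like nuclei. Cldn5 of endothelial cells stood at 0.348 CPM, Neurod6 of cortical excitatory neurons at 0.742, P2ry12 of microglia at 6.31 and Lhx6 of interneurons at 1.18. Free RNA in droplets can give such low levels to any nucleus. After each nucleus was thinned to 3000 UMIs, Tac1 had a UMI in 53.5% of Drd1 SPN (87.8% unthinned), 5.72% of Drd2 SPN and 6.01% of oligodendrocyte-like nuclei. Pdyn had a UMI in 23.6% of Drd1 SPN (53.5% unthinned), 0.645% of Drd2 SPN and 0.900% of oligodendrocyte-like nuclei. Penk, in contrast, had a UMI in 15.5% of thinned Drd1 SPN (36.3% unthinned) and in 15.2% of oligodendrocyte-like nuclei (21.2%). The shares of Sst (5.37% against 13.1%), Npy (1.58% against 3.03%) and Cartpt (3.08% against 3.38%) lay under those of oligodendrocyte-like nuclei. The latter had no Rgs9 UMI and at least 5 UMIs of Mog, Mag and Mobp together. They were no matched background, at a median of 3908 UMIs against 12516 in Drd1 SPN and with 18.8% doublet calls against 5.92%. A share at or under theirs thus does not show that a gene is absent from Drd1 SPN.

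Drd1 SPN differed from Drd2 SPN of the same libraries at 1802 of 11722 genes tested (15.4%), 927 of them higher (7.91%) and 875 lower (7.46%) in Drd1 SPN. The test was edgeR's quasi-likelihood test with the library as a block and Benjamini-Hochberg adjustment over all genes; the genes of the limits were left out of the counts, and since the sets were divided by Drd1 and by Drd2, Adora2a and Gpr6, the comparison describes what else differs between them. The count of 1802 became 838 of 7637 genes after thinning to 3000 UMIs and 700 with no library block. All 8 genes listed for direct-pathway SPN were higher and all 7 listed for indirect-pathway SPN lower.

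The widest differences toward Drd1 SPN were higher in Drd1 SPN in all 11 libraries. Slc35d3, a nucleotide sugar transporter, stood at 57.4 ± 11.3 CPM in Drd1 SPN and 0.956 ± 0.994 in Drd2 SPN (log2 fold change 5.68 ± 0.17, SE). Pdyn, the dynorphin precursor, stood at 111 ± 30.9 against 2.60 ± 1.51 CPM (5.32 ± 0.11). Ebf1, a transcription factor of the direct pathway, stood at 241 ± 111 against 7.25 ± 3.77 CPM (5.08 ± 0.18). Chrm4, the muscarinic M4 receptor that opposes D1 signalling, stood at 42.5 ± 5.01 against 1.25 ± 0.876 CPM (4.85 ± 0.15), and Isl1, a transcription factor that specifies these neurons, at 33.4 ± 7.16 against 1.37 ± 0.709 CPM (4.50 ± 0.15). Lingo2, a neuronal leucine-rich repeat protein, was the gene of this group with the most UMIs, at 2489 ± 264 against 141 ± 56.8 CPM (4.21 ± 0.12). Tac1 followed at 3.69 ± 0.13, with 312 ± 73.1 against 22.0 ± 14.6 CPM. The others were the cytokine receptor subunit Il20ra (5.52), Impg1 (5.03), Cntnap3 (4.43), Sntg2 (3.73) and the RNA-editing family member Adarb2 (3.46).

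The widest differences toward Drd2 SPN were lower in Drd1 SPN in all 11 libraries. Upb1, an enzyme of pyrimidine breakdown, stood at 0.162 ± 0.311 CPM in Drd1 SPN and 34.5 ± 12.4 in Drd2 SPN. Grik3, a kainate receptor subunit, stood at 10.4 ± 5.71 against 308 ± 46.3 CPM (-4.76 ± 0.10), and Penk at 82.0 ± 44.6 against 2169 ± 445 CPM (-4.67 ± 0.17). The delta opioid receptor Oprd1 (-4.49), the orphan receptor Gpr52 (-4.44), the transcription factor Sp9 (-4.39), the muscarinic M3 receptor Chrm3 (-3.69) and the netrin receptor Unc5d (-3.34) came next. Nt5e, the ecto-enzyme that makes adenosine (-2.95), Ptprm (-2.81), Plxdc1 (-2.63) and Adk, the kinase that removes adenosine (-2.55), completed the group. All 24 genes had the same sign in the SPN of the cortical libraries, which are other libraries of the same mice, with log2 fold changes of 5.43 for Pdyn, 7.48 for Ebf1, 4.00 for Tac1 and -4.83 for Penk; there 850 of 8691 genes (9.78%) differed between the types.

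**Figure D2:**
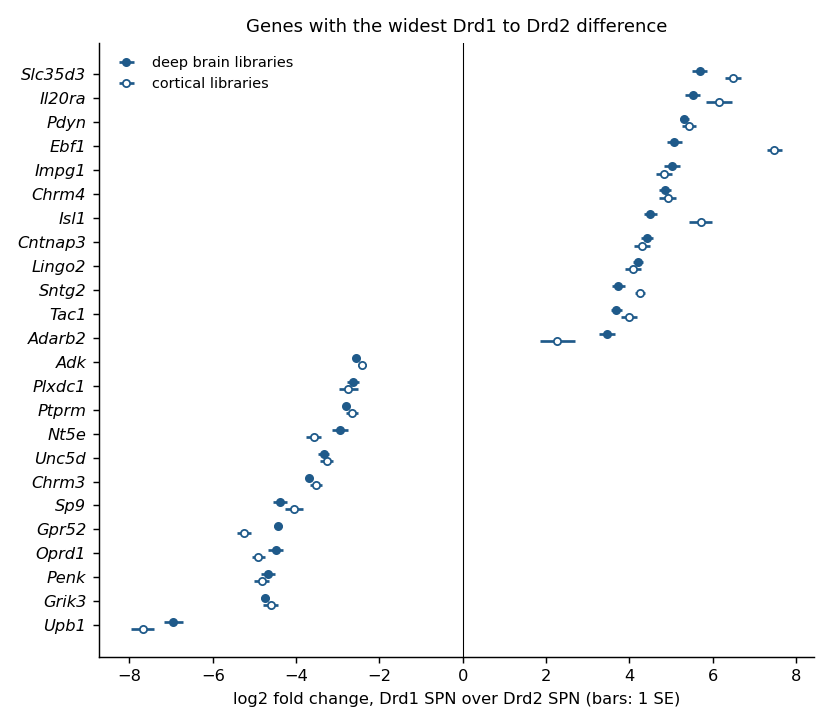
Log2 fold change of Drd1 over Drd2 SPN (horizontal axis, bars 1 SE) for the 24 genes with the widest differences in the deep brain libraries (filled points) and for the same genes in the cortical libraries (open points). Filled and open points lie on the same side of 0 for every gene, from 5.68 for Slc35d3 to -6.94 for Upb1 in the deep brain.

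The counts by list stand beside 7.91% of all genes that were higher and 7.46% that were lower in Drd1 SPN. Of 28 neuromodulator receptors tested, 8 were higher in Drd1 SPN and 8 lower. Beside Chrm4, Drd3 (1.37), the neuropeptide Y receptor Npy1r (1.22), the dynorphin receptor Oprk1 (0.53) and the metabotropic glutamate receptor Grm8 (0.53) were higher, whereas Chrm3, Oprd1 and the serotonin receptor Htr2c (-0.86) were lower. Of 25 genes of cAMP signalling, 2 were higher, led by the adenylyl cyclase Adcy2 (84.3 ± 24.8 against 22.9 ± 9.50 CPM, 1.93 ± 0.10), and 12 were lower, among them the phosphodiesterases Pde4d (-1.27 ± 0.07) and Pde4b (-0.98 ± 0.05). Of 17 genes of SPN identity, 10 were lower in Drd1 SPN and none was higher; Foxp1 (-0.45), Gng7 (-0.38) and Meis2 (-0.37) were among the lower ones. Of 8 neuropeptide genes tested, 3 were higher (Pdyn, Tac1 and Npy, whose share of nuclei lay under that of oligodendrocyte-like nuclei) and Penk was lower. Among 17 glutamate receptor genes 6 were higher and 5 lower, among 17 GABA and glycine receptor genes 3 and 5, and among 38 ion channel genes 6 and 11. Of 15 immediate early genes, which neurons transcribe on activity, 5 were lower in Drd1 SPN, among them Nr4a1 (-0.51 ± 0.08) and Egr1 (-0.40 ± 0.06), and none was higher.

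Drd1 SPN were not uniform, and genes of compartment, position and the eccentric group varied among them. Oprm1, the mu opioid receptor that marks striosomes, had a UMI in 9.20% of thinned Drd1 SPN (95% exact interval 8.10% to 10.4%; 24.2% unthinned), in 8.17% of Drd2 SPN and in 3.08% of oligodendrocyte-like nuclei. The share ran from 3.95% to 16.7% in controls and from 5.08% to 13.2% in mutants; the means of 8.35% ± 2.92 in mutants and 11.3% ± 4.66 in controls (SD, n = 6 each) did not pass the test (two-sided exact permutation test, p = 0.214), but did without control replicate 5 (difference -4.41 points, exact permutation test, p = 0.0390). Control replicate 2, with 6 nuclei, gave the highest control share, and without it the difference was -1.86 points (exact permutation test, p = 0.398).

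The 315 nuclei with at least 2 Oprm1 UMIs were set beside the 1921 with none, at almost the same depth (median 12785 and 12473 UMIs), as a description in 9 libraries. Penk was higher in the Oprm1 nuclei (219 ± 78.8 against 69.2 ± 34.8 CPM) in 9 of 9 libraries. So were Bach2 (153 against 61.3), Nnat (169 against 66.1) and Lypd1 (82.8 against 30.8), all listed for striosomes, and Tshz1 of the eccentric list (97.2 against 46.5). The phosphatase Ptprm, listed like Penk for the indirect pathway, was higher in 9 of 9 too (128 against 45.5). Of that list, Grik3 (26.6 against 7.99 CPM) was higher in 8 of 9 libraries, Six3 in 7, Sp9 in 6, Adk in 3 and Gpr52 in 2. Of the other eccentric genes, Pcdh8 (10.5 against 3.71 CPM) was higher in 8 of 9 libraries and Cacng5 (19.4 against 8.99 CPM) in 7 of 9, whereas Otof stood at 56.8 against 100.2 CPM and was higher in 2 of 9 libraries, and Casz1 and Col11a1 were higher in 5 of 9. The matrix genes Epha4 (181 against 261 CPM) and Id4 (17.6 against 27.7) and the cannabinoid receptor gene Cnr1 (206 against 314) were lower, Cnr1 in 9 of 9 libraries. Of the other genes listed for striosomes, Sema5b (105 against 63.1 CPM) and Kremen1 (24.1 against 15.4 CPM) were higher in 6 of 9 libraries. Asic4 (56.9 against 54.5 CPM) was higher in 5 of 9, and Tac1 was at 311 against 312 CPM. Against Drd2 SPN, 3 of 7 striosome genes were higher in Drd1 SPN (Asic4 3.36, Sema5b 0.65 and Lypd1 0.41) and 2 were lower, beside 7.91% of all genes higher and 7.46% lower.

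Genes of the eccentric and ventral lists were detected in shares that depended on depth. In thinned nuclei, Otof had a UMI in 18.1% of Drd1 SPN (33.8% unthinned) and 0.560% of oligodendrocyte-like nuclei, Crym in 10.8% (29.8% unthinned) and 0.749%, Wfs1 in 27.6% (60.4% unthinned) and 5.15%, and Drd3, the D3 dopamine receptor of the ventral striatum and the islands of Calleja, in 13.1% (32.6% unthinned) and 0.159%. Against Drd2 SPN, Drd3 was higher (47.0 ± 27.2 against 18.8 ± 13.4 CPM, 1.37 ± 0.09). So were 4 of 5 eccentric genes tested, while the other, Cacng5, was lower (-0.94). Of 6 ventral or medial genes, 3 were higher and Stard5 was lower (-0.47). Wfs1 (0.90) and Dlk1 (1.30, but 0.12 and not called under the lower limits in the same libraries) were among the higher ones. Over all genes, 7.91% were higher and 7.46% lower in Drd1 SPN.

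Between genotypes, 282 of 12142 genes tested changed in deep brain Drd1 SPN (2.32%), 178 higher (1.47%) and 104 lower (0.857%) in Pdgfb ret/ret mice, and the median over all genes was 0.00. The test was edgeR's quasi-likelihood test on the sums of 6 mutant and 5 control libraries with Benjamini-Hochberg adjustment over all genes. The count moved with the mice: it was 146 without control replicate 6, the male, 179 without control replicate 1, 178, 184 and 186 without mutant replicates 6, 2 and 5, and 408 without mutant replicate 1. With the limits lowered to 2 UMIs of Rgs9 and 1 of Drd1, it was 247 in the same 11 libraries and 97 once control replicate 2, which then held at least 10 nuclei, entered as well. The 24 genes with the smallest p, 12 in each direction, were chosen in these same 11 libraries. All 24 kept their call whichever of the 11 libraries was left out, beside 33 of the 50 called genes described in all. They also kept it under the lower limits in the same libraries. With control replicate 2 added to the latter, Ildr2 (0.58), Pde4d (0.16, against 0.50 in the same libraries), Slc24a2 (-0.41), Dach1 (-0.79) and Rbms1 (-0.46) lost it. Together with the called genes of the lists described further on, 14 of 50 genes lost their call under the lower limits in the same libraries and 26 of 50 with control replicate 2.

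The 12 genes that were higher in mutants are given first. Tcerg1l, related to a transcription elongation regulator and located at chr7:138208974-138397730, had the smallest p. It stood at 46.8, 59.6, 45.2, 43.9, 57.2 and 48.9 CPM in the 6 mutants and 13.6, 8.59, 17.8, 16.5 and 9.18 CPM in the 5 controls (log2 fold change 1.94 ± 0.16, SE; edgeR adjusted p = 1.18e-05). Every mutant lay well above every control. Col11a1, a fibrillar collagen chain and a gene of the eccentric list, stood at 54.0 ± 12.7 CPM (32.7 to 64.7) in mutants and 14.1 ± 7.64 (3.22 to 21.3) in controls (1.87 ± 0.24; edgeR adjusted p = 0.000389). Nrp2, a receptor of semaphorins, stood at 98.6 ± 42.1 CPM in mutants and 18.4 ± 3.15 in controls (2.44 ± 0.30), with mutant replicate 1 at 25.9 CPM the nearest to the controls, whose highest was 22.0. Csgalnact1, an enzyme of chondroitin sulfate synthesis, stood at 133 ± 40.3 against 32.9 ± 13.4 CPM (1.98 ± 0.25). Tafa2, a secreted chemokine-like protein, stood at 363 ± 99.3 against 123 ± 29.5 CPM (1.56 ± 0.20); its lowest mutant (replicate 1, 170 CPM) lay under the highest control (172 CPM), the sole overlap among the 24 genes. The metalloprotease Adamts6 (1.14), the sialyltransferase St3gal1 (1.83), the receptor-like Ildr2 (0.82), the potassium channel Kcnd3 (1.09), the phosphodiesterase Pde4d (0.79), the transcription factor Zbtb7c (1.65) and the long non-coding RNA 9330185C12Rik (2.03) completed this group.

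Genes that were lower in mutants follow. Gm19410, a predicted protein-coding gene at chr8:35765790-35818047, stood at 27.6, 14.5, 10.7, 19.6, 13.6 and 24.4 CPM in the mutants and at 50.4, 63.3, 58.7, 73.5 and 59.5 CPM in the controls (-1.75 ± 0.18; edgeR adjusted p = 9.1e-05). No mutant reached the lowest control. Ebf1, the direct-pathway factor at chr11:44617317-45008091, stood at 245, 163, 123, 151, 97.6 and 150 CPM in the mutants and at 325, 434, 330, 348 and 320 CPM in the controls (-1.18 ± 0.17; edgeR adjusted p = 0.000796). A UMI of it was found in 26.5% ± 11.0 of thinned mutant nuclei and 57.3% ± 7.13 of thinned control nuclei, beside 3.40% of oligodendrocyte-like nuclei. Klhl1, a kelch protein, stood at 58.6 ± 22.6 against 157 ± 17.0 CPM (-1.45 ± 0.18), Dach1, a transcription factor, at 486 ± 121 against 920 ± 70.5 CPM (-0.93 ± 0.13), and Slc24a2, a sodium and calcium exchanger, at 655 ± 60.5 against 990 ± 41.7 CPM (-0.60 ± 0.08). Grm8, a metabotropic glutamate receptor, stood at 183 ± 40.6 against 471 ± 179 CPM (-1.34 ± 0.20). Bach2 (-0.97), the integrin Itga5 (-0.94), the catenin Ctnna1 (-0.89), the sphingosine phosphate phosphatase Sgpp2 (-0.86) and the RNA-binding protein Rbms1 (-0.54) were also in the group.

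Of the 282 called genes, 135 (47.9%) had no overlap between the mutants and the controls, beside 222 of all 12142 genes (1.83%). Mutant replicate 1 was the mutant nearest to the control mean in 15 of these 24 genes and 147 of the 282 called genes, beside 2092 of all genes.

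Of the genes of position in the striatum, 4 were called between genotypes in the deep brain libraries, of which Stard5 and Cnr1 not in every fit that left out a library. Over all genes, 1.47% were higher and 0.857% lower. Of 6 ventral or medial genes, 2 were higher in mutants, none was lower and the median log2 fold change was 0.81. Nts, the neurotensin precursor at chr10:102481756-102490486, stood at 5.63, 42.0, 78.7, 40.6, 73.8 and 19.5 CPM in the mutants and at 1.19, 2.15, 4.13, 3.67 and 1.67 CPM in the controls (4.27 ± 0.58; edgeR adjusted p = 0.000592). It rested on 878 UMIs in mutants and 32 in controls, 2 to 13 per control library. The thinned share of Drd1 SPN with a UMI of it was 6.59% ± 3.07 in mutants and 0.0926% ± 0.207 in controls, beside 2.16% and 0.852% of the oligodendrocyte-like nuclei of the same libraries. The control share thus lay under that of oligodendrocyte-like nuclei and the mutant share above it. Stard5 was also called (1.08 ± 0.27, edgeR adjusted p = 0.0433). It lost the call without any of 8 libraries (mutant replicates 1 to 4 and control replicates 1, 3, 5 and 6). Its log2 fold change was 0.86 to 1.28 when a library was left out. A Stard5 UMI was found in 5.01% of thinned Drd1 SPN and 6.76% of oligodendrocyte-like nuclei. Drd3 stood at 43.4, 84.3, 94.0, 60.5, 64.6 and 61.4 CPM in the mutants and at 24.4, 18.3, 38.4, 15.6 and 18.2 CPM in the controls (1.51 ± 0.21; edgeR adjusted p = 0.000811), with no overlap.

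Both dorsolateral genes were lower in mutants, beside 0.857% of all genes that were lower and 1.47% that were higher. Gpr155 stood at 121 ± 14.9 CPM in mutants and 181 ± 34.0 in controls (-0.60 ± 0.12; edgeR adjusted p = 0.00908) and Cnr1, the cannabinoid CB1 receptor, at 204 ± 63.8 against 393 ± 175 CPM (-0.96 ± 0.23; edgeR adjusted p = 0.0324). The call of Cnr1 was lost without mutant replicate 2, 3, 5 or 6 or control replicate 1 or 6 (-1.14 to -0.67 when a library was left out). Of 6 eccentric genes, 4 were higher (Col11a1, Tshz1 0.76, Otof 1.52 and Casz1 1.22), none was lower and the median was 1.27. Tshz1 kept its call in every such fit. Its thinned share was 9.67% ± 2.52 in control Drd1 SPN and 10.7% in control oligodendrocyte-like nuclei, against 16.9% ± 3.65 and 11.7% in mutants. Otof lost its call without mutant replicates 2, 3, 5 or 6 or control replicates 1, 4 or 6 (1.23 to 1.84). Casz1 lost its call without mutant replicates 2, 3, 5 or 6 or control replicates 1, 3 or 4 (1.03 to 1.40). Under the lower limits in the same libraries, Tshz1 (0.70) and Gpr155 (-0.60) kept their calls and Cnr1 (-0.94) and Casz1 (0.97) lost them; with control replicate 2 added, Tshz1 (0.62), Gpr155 (-0.52) and Otof (1.41) lost theirs too. Nts, still called, stood at 2.81 and 2.79 in these fits. With mice matched by age as a block, Cnr1 (-0.82), Casz1 (1.15) and Stard5 (1.01) were not called. DESeq2 did not call Otof or Cnr1, the stricter limits (5 UMIs of Rgs9 and 3 of Drd1) ended the calls of Otof, Cnr1 and Casz1, and thinning to 3000 UMIs that of Stard5. Otof had a UMI in 24.1% ± 9.20 of thinned mutant and 11.2% ± 7.29 of thinned control nuclei. Summed over each list, ventral or medial genes came to 306 ± 63.5 CPM (241 to 411) in mutants and 182 ± 44.4 (104 to 207) in controls, and dorsolateral genes to 325 ± 78.6 (247 to 470) and 568.1 ± 199.7 (416 to 910). Eccentric genes came to 273 ± 85.3 CPM (124 to 381) in mutants and 118 ± 39.6 (66.3 to 174) in controls. In these deep brain libraries, genotype and the striatal position of the sampled nuclei cannot be told apart.

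**Figure D3:**
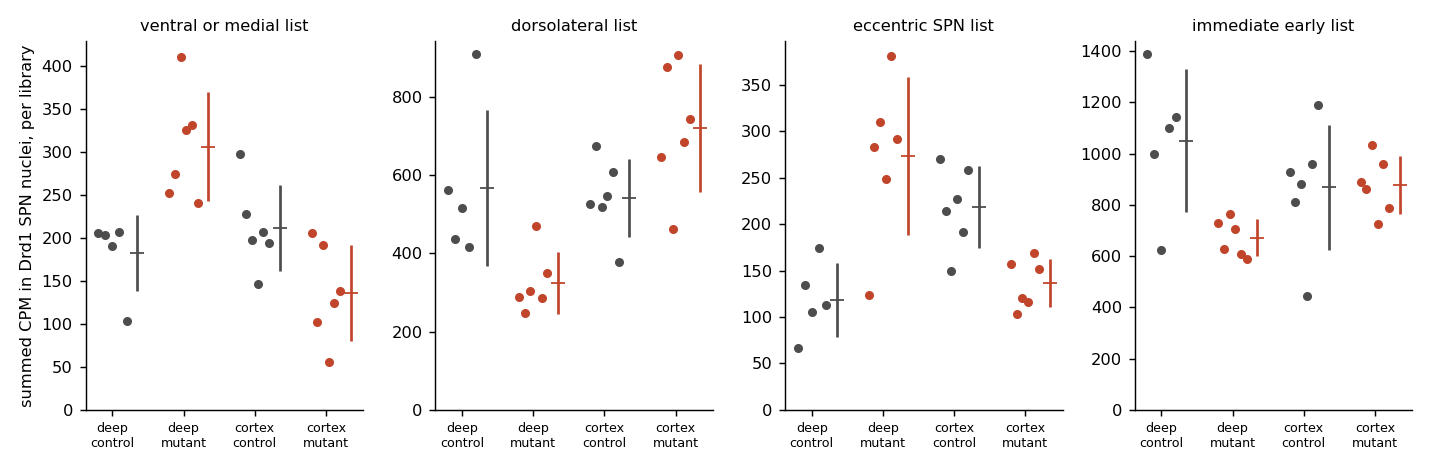
Summed CPM of 4 gene lists in Drd1 SPN nuclei, a point per library with the mean and SD beside the points, for deep brain (5 controls, 6 mutants) and cortical libraries (6 each). Mean ventral or medial and eccentric sums are higher in mutants than in controls in the deep brain and lower in the cortical libraries, the mean dorsolateral sum the reverse. The mean immediate early sum is lower in the deep brain (671 against 1051) and close in the cortical libraries (877 against 869). In the deep brain, the points of the genotypes overlap for every list but the ventral or medial.

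Genes of the direct pathway and of SPN identity stand beside 1.47% of all genes that were higher and 0.857% that were lower in mutants. Of 8 direct-pathway genes, Ebf1 and Eya1 were lower (Eya1 -0.80 ± 0.17; edgeR adjusted p = 0.0168, 0.0753 without control replicate 6, 0.0516 under the lower limits in the same libraries and 0.0577 under the stricter limits), and the others did not pass the test. Tac1 stood at 331 ± 92.2 CPM in mutants and 296 ± 47.6 in controls (0.18 ± 0.16; edgeR adjusted p = 0.761), Pdyn at 109 ± 25.6 against 115 ± 40.1 CPM, Chrm4 at 43.0 ± 4.81 against 42.9 ± 5.99 CPM and Isl1 at 33.8 ± 6.26 against 33.9 ± 9.08 CPM. Of 17 identity genes, 2 were lower, among them Actn2 (215 ± 15.6 against 274 ± 31.7 CPM, -0.35 ± 0.09; edgeR adjusted p = 0.0395), none was higher, and 16 had a negative log2 fold change (median -0.21). Actn2 (-0.39 to -0.28 when a library was left out) lost its call without control replicate 1, 5 or 6 or mutant replicate 2, 3, 5 or 6, and was not called under the lower limits in the same libraries (-0.36), with mice matched by age as a block (-0.33), under the stricter limits (-0.32), after thinning (-0.35), without Scrublet doublets (-0.34) or with no filter on low counts (-0.35). Pde10a (-0.23), Foxp1 (-0.35; edgeR adjusted p = 0.0552) and Ppp1r1b (-0.34) did not pass the test. None of the 6 indirect-pathway and 3 matrix genes tested passed it, and of 7 striosome genes only Bach2 did.

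The signalling lists stand beside 1.47% of all genes that were higher and 0.857% that were lower in mutants. Of 25 genes of cAMP signalling, Pde4d, Adcy2 (103 ± 16.2 against 64.04 ± 14.4 CPM, 0.70 ± 0.14; edgeR adjusted p = 0.00951) and Pde4b (0.56 ± 0.14; edgeR adjusted p = 0.0340) were higher; Adcy5 (-0.07) and Gnal (-0.05) did not pass the test. Of 38 ion channel genes, 4 were higher: Kcnd3, the inward rectifier Kcnj6 (26.5 ± 8.50 against 9.60 ± 1.59 CPM, 1.47 ± 0.22; edgeR adjusted p = 0.00103), and the channel-interacting Kcnip1 (1.11 ± 0.19) and Kcnip4 (0.43). Of 17 GABA and glycine receptor genes, Gabra3 (46.9 ± 15.2 against 21.4 ± 6.91 CPM, 1.30 ± 0.25; edgeR adjusted p = 0.00706) and Gabrg1 (0.91) were higher. Of 18 glutamate receptor genes, Grin3a (1.32) and Grik4 (0.85) were higher. Of 29 neuromodulator receptors, 3 were higher (Drd3, Oprd1 and the serotonin receptor Htr4, 1.33) and 3 lower, among them Grm8 and Cnr1; Oprd1 rested on 83 UMIs in mutants and 11 in controls, and it had enough UMIs to be tested in 6 of the 11 fits that left out a library (1.99 to 4.07), of which the fit without control replicate 1 lost the call. The calls of Grik4 (0.66 to 1.00) and Htr4 (1.10 to 1.56) were lost without mutant replicate 2, 3, 5 or 6 or control replicate 1 or 6, and that of Gabrg1 (0.80 to 1.14) without mutant replicate 5 or 6 or control replicate 1 or 6. The call of Grin3a (1.083 to 1.504) was lost without mutant replicates 2 to 6 or control replicates 1, 3 or 6, each left out in turn. The calls of Pde4b (0.48 to 0.66) and Kcnip4 (0.38 to 0.49) were lost without mutant replicate 2, 3, 5 or 6 or control replicate 3, 5 or 6, and that of Kcnip4 also without control replicate 1. Under the lower limits in the same libraries, Kcnj6 (0.77), Kcnip1 (0.65), Adcy2 (0.51), Gabrg1 (0.56), Grin3a (0.65), Oprd1 (1.48) and Kcnip4 (0.42) were not called. With control replicate 2 added, Kcnj6 stood at 0.45, Kcnip1 at 0.58, Adcy2 at 0.33, Gabrg1 at 0.37 and Grin3a at 0.42, and Gabra3 (0.82), Pde4d, Pde4b (0.47) and Grik4 (0.63) lost their calls as well. With mice matched by age as a block, Pde4b, Kcnip4, Gabrg1, Grik4 and Grin3a were not called. DESeq2 did not call Htr4 or Grin3a, and the stricter limits ended the calls of Kcnip4 and Grin3a.

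Of 16 immediate early genes tested, 3 were lower in mutant Drd1 SPN (beside 0.857% of all genes) and none was higher. All 16 had a negative log2 fold change (median -0.87, beside 0.00 over all genes). Egr1 stood at 28.2, 24.2, 39.0, 50.0, 32.7 and 39.1 CPM in the mutants and at 128, 56.9, 37.2, 62.4 and 72.6 CPM in the controls (-1.04 ± 0.25; edgeR adjusted p = 0.0324). Control replicate 1 was the highest and control replicate 4 lay within the mutant range. Homer1 stood at 445 ± 41.8 against 625.3 ± 108 CPM (-0.49 ± 0.11; edgeR adjusted p = 0.0195) and Egr3 at 18.1 ± 2.48 against 31.2 ± 8.94 CPM (-0.75 ± 0.18; edgeR adjusted p = 0.0387). Egr1 lost its call without control replicate 1 or 6 or mutant replicate 2, 3, 5 or 6 (-1.23 to -0.66), Homer1 without control replicate 1 or 6 or mutant replicate 5 or 6 (-0.58 to -0.42), and Egr3 without any of 9 libraries, that is all but mutant replicate 1 and control replicate 4 (-0.94 to -0.64). With mice matched by age as a block, Egr1 (-0.80; edgeR adjusted p = 0.203) and Egr3 (-0.63; edgeR adjusted p = 0.167) were not called. Under the lower limits in the same libraries, Homer1 (-0.43; edgeR adjusted p = 0.0699) and Egr3 (-0.61; edgeR adjusted p = 0.0792) were not called, nor was Egr1 once control replicate 2 was added (-0.98; edgeR adjusted p = 0.0710). DESeq2 did not call Egr1 (adjusted p = 0.0525), nor did edgeR call Egr3 after thinning to 3000 UMIs (-0.40; adjusted p = 0.535). Fos had a UMI in 2.37% of thinned Drd1 SPN and 2.25% of oligodendrocyte-like nuclei. Arc (-1.21; edgeR adjusted p = 0.0880), Nr4a1 (-0.89), Fos (-0.84), Junb (-0.85) and Npas4 (-0.73) did not pass the test. In the cortical libraries none of 12 tested passed it, with a median of -0.19. In Drd2 SPN of the deep brain libraries, all 15 tested had a negative log2 fold change (median -0.96). There 2 were lower, beside 69 of all 11611 genes.

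**Figure D4:**
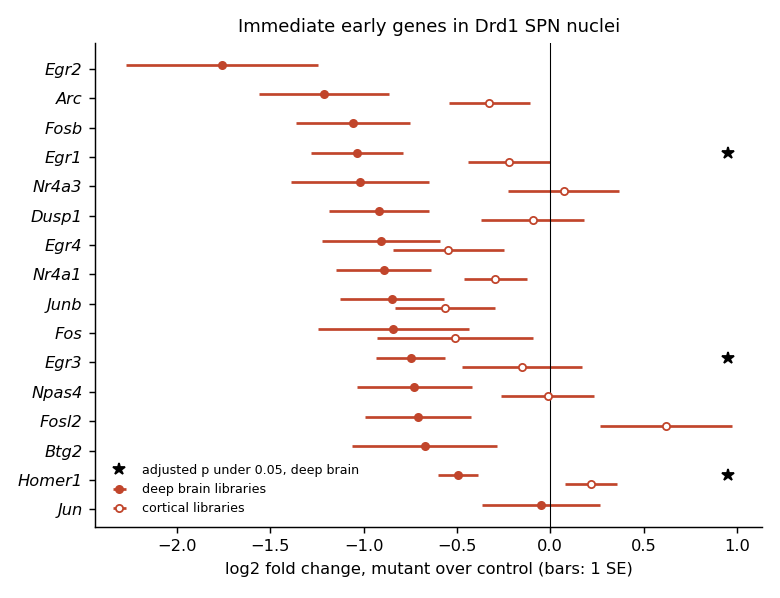
Log2 fold change of mutant over control (horizontal axis, bars 1 SE) for the immediate early genes in Drd1 SPN of the deep brain (filled points) and of the cortical libraries (open points, where tested), with a star for an adjusted p under 0.05 in the deep brain. All 16 deep brain points lie left of 0, from -1.76 for Egr2 to -0.05 for Jun.

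No gene passed the test in the lists for interferon and MHC class I (4 of 25 genes had enough UMIs), hypoxia and glycolysis (15 of 18), stress and unfolded protein (9 of 14) or brain calcification (5 of 8). The calcification genes Slc20a2, a phosphate importer (0.07 ± 0.10), Xpr1, a phosphate exporter (0.07 ± 0.09), and Pdgfb itself (5.35 ± 2.42 against 3.98 ± 0.963 CPM, 0.42 ± 0.32) were among them. The ret allele removes a stretch of the protein, so that the Pdgfb level does not check the genotype labels. Markers of other cells were compared as well. The oligodendrocyte genes outside the limits summed to 167 ± 30.4 CPM in mutants and 201 ± 29.1 in controls (124 to 207 and 168 to 238), and Mbp alone was lower (62.0 ± 6.79 against 89.7 ± 7.50 CPM, -0.55 ± 0.09; edgeR adjusted p = 0.00317, but 0.0702 after thinning to 3000 UMIs). Astrocyte genes summed to 145 ± 61.2 and 173 ± 99.5 CPM, microglial genes to 21.8 ± 3.33 and 19.7 ± 6.00, and OPC genes to 9.75 ± 9.33 and 5.25 ± 3.71. Endothelial genes summed to 1.10 ± 0.925 and 0.559 ± 0.903 CPM, and interneuron genes to 37.1 ± 25.2 and 51.0 ± 23.4. Genes of cortical glutamatergic neurons summed to 1.01 ± 0.645 CPM (0 to 1.84) in mutants and 4.03 ± 1.24 (2.72 to 5.81) in controls, with no overlap. One of them, Neurod6, had a UMI in 0.413% ± 0.316 of thinned mutant and 1.33% ± 0.616 of thinned control oligodendrocyte-like nuclei. The part of all these markers in the results was not tested.

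The same limits in the cortical libraries gave the opposite direction for most of these genes. There, 15 of 9034 genes (0.166%) changed between genotypes, 6 higher and 9 lower, with 1014 at an unadjusted p under 0.05; DESeq2 called 102 of the 2027 genes to which it gave an adjusted p. The count was 0 without control replicate 1 or 2 or mutant replicate 2, 3, 5 or 6, 1 without control replicate 3 or mutant replicate 4, 6 without control replicate 6, 30 without control replicate 4, 46 without mutant replicate 1 and 91 without control replicate 5. With the replicate number as a block it was 169, although the labels state no pairs. Of the 246 genes called in the deep brain that were tested there, 201 had the opposite sign and 45 the same; this was 123 of 147 genes that were higher and 78 of 99 that were lower, beside 4617 of all 9034 genes (51.1%). Col11a1 stood at 19.0 ± 6.68 CPM in mutant and 50.3 ± 20.7 in control cortical Drd1 SPN of the mice with both libraries. In the fit of all 12 cortical libraries its log2 fold change was -1.24 (edgeR adjusted p = 0.0448). The ventral or medial sum was 136 ± 56.0 CPM in mutants and 212 ± 50.1 in controls, the dorsolateral sum 721 ± 163 and 542 ± 99.4, and the eccentric sum 137 ± 26.3 and 219 ± 44.2, each the reverse of the deep brain order. These are other libraries of the same mice, and most of them held few nuclei (18 to 319, at medians of 10485 to 30771 UMIs).

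**Figure D5:**
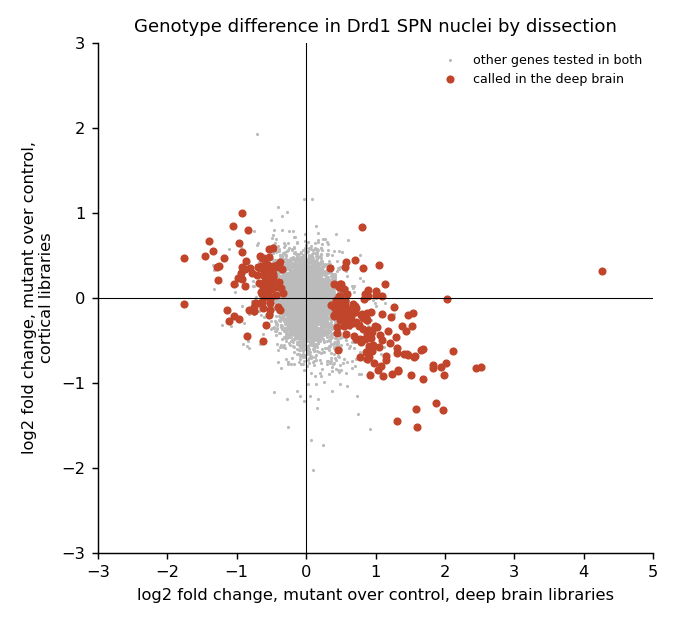
Log2 fold change of mutant over control in Drd1 SPN of the deep brain libraries (horizontal axis) and of the cortical libraries (vertical axis) for the 9034 genes tested in both; genes called in the deep brain are drawn large. Called genes fill mainly the upper left and lower right areas, 201 of 246 having opposite signs; Nts lies at the far right with 4.27 and 0.31.

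A test of the difference itself, with each mouse as a block over both of its libraries (11 mice), called 435 of 11533 genes (3.77%), 199 with a higher and 236 with a lower genotype change in the deep brain; without control replicate 1, control replicate 6 or mutant replicate 5 it called 233, 235 and 239. Gm19410 had the smallest p: in the deep brain it stood at 18.1 ± 6.52 CPM in mutant and 60.1 ± 8.13 in control Drd1 SPN, and 58.9 ± 11.9 and 39.7 ± 13.2 CPM in the cortical libraries (difference of log2 fold changes -2.35 ± 0.22). Col11a1 followed (3.25 ± 0.32), then Tspear (-2.30), the formin Fmnl2 (2.36), the polarity protein Pard3b (3.81), the transcription factor Onecut2 (-1.65), the olfactomedin Olfm3 (1.39) and the protease Adam12 (2.36). By list, 5 of 6 ventral or medial and 4 of 6 eccentric genes had a higher change in the deep brain, and 2 of 2 dorsolateral, 7 of 17 identity and 5 of 15 immediate early genes a lower one. Among other lists, 2 of 8 direct-pathway and 2 of 7 striosome genes had a lower change there. Of 25 genes of cAMP signalling, 3 had a higher and 5 a lower one. None of the 8 direct-pathway genes was called between genotypes in the cortical libraries alone (log2 fold change -0.48 to 0.46). For SPN identity genes the deep brain sum was 12529 ± 563 CPM in mutants and 14246 ± 1065 in controls, the cortical sum 15524 ± 931 and 13559 ± 728.

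When the nuclei of both libraries of a mouse were summed, 49 of 12862 genes were called, 37 higher and 12 lower. The genes called higher in the deep brain had a median log2 fold change of 0.92 there and 0.49 in this sum, and those called lower -0.62 and -0.35. In the deep brain nuclei that held at least 3 UMIs of the dorsolateral genes and at most 1 of the ventral or medial genes and Drd3 (732 nuclei, 261 mutant and 471 control, 23 to 231 per library), none of 6999 genes was called by edgeR, with 453 at an unadjusted p under 0.05, and DESeq2 called 5 of 4149. The genes called higher among all deep brain nuclei and tested here had a median of 0.70 there and 0.48 in these nuclei, and those called lower -0.59 and -0.33. The nuclei were selected on genes that themselves differed between genotypes, and the genes compared were chosen by their call in the first comparison, so that nothing is read from the smaller sizes. These fits share libraries with the first comparison, and both were chosen after its result was seen.

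The genotype change differed between Drd1 and Drd2 SPN at 84 of 12491 genes (0.672%), 42 in each direction, in a fit with the mouse as a block. It was 136 genes without mutant replicate 1 and 54 without control replicate 6, and with the limits lowered to 2 Rgs9 UMIs and 1 UMI of the receptor genes it was 55 in the same libraries and 18 with control replicate 2 added. Htr4, a serotonin receptor that raises cAMP, had the smallest p: it stood at 248 ± 80.8 CPM in mutant and 106 ± 57.2 in control Drd1 SPN and at 211 ± 70.1 and 229 ± 92.1 CPM in Drd2 SPN (difference of log2 fold changes 1.48 ± 0.12; edgeR adjusted p = 1.45e-08). Nts stood at 42.6 ± 28.3 and 2.52 ± 1.26 CPM in Drd1 SPN and at 19.3 ± 7.34 and 31.2 ± 32.2 CPM in Drd2 SPN (5.06 ± 0.48). Ebf1 fell in Drd1 SPN (-1.18) and stood at 9.20 ± 3.25 and 4.86 ± 3.02 CPM in Drd2 SPN (difference -2.38 ± 0.27). In Drd2 SPN it was not called (edgeR adjusted p = 0.141), and its thinned shares of 2.13% and 0.905% of nuclei lay under those of oligodendrocyte-like nuclei (3.35% and 3.42%). Eya1 was lower in Drd1 SPN and higher in Drd2 SPN (-0.80 and 1.03; difference -1.86 ± 0.21). Necab1, a calcium-binding protein, was higher in mutant Drd1 SPN (176 ± 45.1 against 97.3 ± 9.18 CPM) and at 448 ± 74.6 against 476 ± 83.8 CPM in Drd2 SPN. Kcnj3, an inward rectifier, stood at 120 ± 28.8 against 97.6 ± 19.8 CPM in Drd1 SPN, where it was not called (0.33), and was higher in mutant Drd2 SPN (99.5 ± 33.2 against 41.9 ± 8.42 CPM, 1.28; difference -0.93 ± 0.12, but -0.50 and not called under the lower limits in the same libraries). Zar1l (3.45 ± 0.35) and the integrin Itgb8 (1.10 ± 0.15) were the others named by p. Zar1l was higher in mutant Drd1 SPN (1.96) and lower in mutant Drd2 SPN (-1.46, edgeR adjusted p = 0.0125). In Drd1 SPN it rested on 210 UMIs in mutants and 40 in controls, 0 to 16 per control library. With the lower limits and control replicate 2, the differences of Ebf1 (-1.81), Eya1 (-1.05), Necab1 (0.74) and Kcnj3 were not called, and with no mouse term those of Htr4, Necab1, Kcnj3 and Itgb8 were not. Of the 24 genes with the smallest genotype p in Drd1 SPN, 23 were tested in Drd2 SPN of the same libraries and 13 were called there with the same sign, among them Nrp2 (3.01), Zbtb7c (1.63) and Klhl1 (-1.29). Not called there were, for example, Col11a1 (0.77), Bach2 (-0.26) and Ebf1. Over the genes called in Drd1 SPN and tested in both, the median was 0.89 in Drd1 and 0.54 in Drd2 SPN for the higher and -0.62 and -0.47 for the lower ones. These genes were chosen by their result in Drd1 SPN, so that nothing is read from the smaller sizes in Drd2 SPN. In Drd2 SPN, 145 genes were higher and 69 lower of 11611 tested. In the cortical libraries the difference between the types called 0 of 9502 genes by edgeR, with 385 at an unadjusted p under 0.05, and 2 by DESeq2.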

How the data were processed

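Nuclei of 12 mice, a deep brain and a cortical library each (24 libraries), were profiled by the authors with a 10x 5′ kit. The submitters' processing notes name bcl2fastq 2.20.0.422, Cell Ranger 5.0.1 and mm10; the deposited values are UMI counts per gene and nucleus. The counts were used as deposited. Raw counts were summed over the Drd1 SPN nuclei of each library with at least 10 such nuclei (control replicate 2 fell out) and tested with edgeR 4.0.16 (quasi-likelihood test, filterByExpr, TMM, Benjamini-Hochberg adjustment over all genes, threshold 0.05); DESeq2 1.42.0 was an alternative. In gene comparisons CPM was scaled by TMM, elsewhere by the summed UMIs. Shares were compared with exact permutation tests over mice, and thinned to 3000 UMIs where stated. Intervals cover counting error only. In simulated genotype data edgeR recovered 167 of 195 genes changed by a log2 fold of 1, with 7 false calls among 12025 genes. It recovered 194 of 195 for Drd1 against Drd2, 157 of 197 for the difference between types and 93 of 200 for that between regions. The simulated libraries held no difference in the striatal position of nuclei. The genes of the limits were fitted with the others and entered the adjustment, but they were left out of the counts and are not reported as tested. Named were the 12 genes per direction with the smallest p (genotype) or the widest fold at 20 CPM or more (Drd1 against Drd2), the 8 with the smallest p for each difference of changes, and list members by p or role. The members, lists and tests were chosen with earlier results of these data known. Doublets were kept and left out as an alternative. Gene positions are from GENCODE vM21 (GRCm38). Mice are separate, but the labels give no litters. Some genes that met the naming rule are not reported here by name.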

Additional observations from a re-analysis of the deposited data

Results flagged for a closer look

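Among the named genes, 54 groups of values were examined for a sample far from the others, of which chance gives about 1 in 20, and 3 stood out. Tafa2 was lowest in mutant replicate 1, at 170 CPM, with the next mutant at 354 CPM. Ebf1 was highest in control replicate 3, at 434 CPM, with the next control at 348 CPM. Ctnna1 was highest in mutant replicate 3, at 29.0 CPM, with the next mutant at 26.1 CPM.

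A difference between the genotype changes of Drd1 and Drd2 SPN was called at 84 genes. For those with the smallest p, the difference of log2 fold changes (Drd1 minus Drd2) was 1.48 for Htr4, 5.06 for Nts, 3.45 for Zar1l, -2.38 for Ebf1, -1.86 for Eya1, 0.89 for Necab1, -0.93 for Kcnj3 and 1.10 for Itgb8. A difference between the genotype changes of the deep brain and the cortical libraries was called at 435 genes. For those with the smallest p, the difference (deep brain minus cortex) was -2.35 for Gm19410, 3.25 for Col11a1, -2.30 for Tspear, 2.36 for Fmnl2, 3.81 for Pard3b, -1.65 for Onecut2, 1.39 for Olfm3 and 2.36 for Adam12.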

How the results depend on the processing

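The share of Drd1 SPN among deep brain nuclei did not pass the test under any of 20 alternatives. The Drd1 share of both SPN types was 2.17 points under the stricter limits and 1.66 with limits on thinned nuclei, passed the test under the lower UMI limits (7.61 points with control replicate 2, 5.67 in the same libraries) and without Scrublet doublets (4.38 points), and ranged from 2.44 to 4.56 points when a mouse was left out; the Oprm1 share difference ranged from -4.41 to -1.86 points. The genotype count of 282 became 318 with DESeq2, 276 with RLE size factors, 459 with no filter on low counts, 97 under the lower limits with control replicate 2 added (247 in the same libraries), 49 with both regions summed and 0 in nuclei with at least 3 dorsolateral and at most 1 ventral UMI (nuclei chosen on genes that differed between genotypes; 6999 genes tested), and 146 to 408 when a mouse was left out. The 1802 genes between Drd1 and Drd2 SPN became 838 after thinning, 700 with no library block and 1574 to 1799 when a mouse was left out. The 84 genes whose change differed between the types became 38 with DESeq2, 217 with no filter, 18 under the lower limits with control replicate 2 (55 in the same libraries), 51 under the stricter limits, 6 with no mouse term and 54 to 136 when a mouse was left out. The 435 genes that differed between regions became 755 with no filter and 233 to 594 when a mouse was left out. The 15 cortical genes became 102 with DESeq2 (of 2027 genes with an adjusted p, against 9034), 169 with a replicate block and 0 to 91 when a mouse was left out. The causes of these moves were not tested.

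Under the lower limits with control replicate 2, 6 of the listed genes changed sign between Drd1 and Drd2 SPN: Pde10a (0.0508), Gabrg3 (0.0323), Pde7b (0.0034), Grm5 (0.0178), Grik1 (-0.26) and Gabrg1 (-0.0541); in the same libraries, only Grik1 (-0.23) and Gabrg1 (-0.0748) did. The other described gene values that were called kept their sign under every alternative in which they were tested. The cortical libraries were not among these alternatives. There, 201 of the 246 genes called in the deep brain and tested had the opposite sign. Of the genotype values of listed and named genes under these alternatives, 973 kept their call and 249 lost their call. The lower limits in the same libraries, the sum of both regions, the dorsolateral subset, libraries with at least 5 nuclei, and the comparisons in cortical libraries and between regions were chosen after seeing the data.

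With the replicate number as a block, the genotype count was 262, the share differences were 0.456 points for Drd1 SPN, 4.06 for the SPN ratio and -2.94 for Oprm1, and Egr1, Egr3, Actn2, Pde4b and Kcnip4 were among the genes that lost their calls; with mice matched by age the count was 191 and 12 of 50 described genes lost their calls. Same-numbered mice correlated at -0.146 to 0.226 in their deviations from the group means, and although most of them share an age, no label states a shared litter or day, so the numbers were not taken as pairs.

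Drd1 SPN nuclei numbered 72 and 76 in control replicates 3 and 5 and as few as 18 in a cortical library; what this cost in precision was not tested.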
